A study of Mus musculus with 8 samples.

Results

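The genes described here are the amino acid transporters of the mouse solute carrier families Slc1a, Slc3a, Slc6a, Slc7a, Slc36a, Slc38a and Slc43a, taken by symbol and without Slc7a11. RefSeq annotates 60 such genes, 58 were matched to a probe (Slc6a5 and Slc6a16 were not), and 29 were bright enough to be tested, of 13785 named genes and 25799 genes and unnamed probes tested in all. The cells were 3T3-L1, a line of mouse fibroblasts able to differentiate into fat-like cells. They were grown in DMEM with 10% fetal calf serum, kept for 1 week in adipogenic medium and then given culture supernatant, diluted 2-fold, of human HL-60 leukemia cells that had spent 5 days in 30 nM PMA, a phorbol ester. The groups were KD supernatant for 6 h (HL-60 cells with a knockdown of USP2, a ubiquitin-specific protease), control supernatant for 6 h (mock vector), KD supernatant for 3 h and control supernatant for 3 h, with 2 arrays each. All 8 samples had been given HL-60 supernatant, so levels in cells without it are not analysed here. Since USP2 was targeted in the human cells, the mouse arrays give no check of the knockdown.

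Amino acid transporters set which amino acids enter a cell, leave it or leave its lysosomes. Slc7a light chains reach the plasma membrane bound to a heavy chain, Slc3a2 (4F2hc, CD98) or Slc3a1 (rBAT), and exchange amino acids across it, while Slc38a transporters take up small neutral amino acids with sodium and Slc1a transporters carry glutamate or neutral amino acids. Several genes of these families carry something else, such as noradrenaline (Slc6a2), creatine (Slc6a8) or nucleobases (Slc43a3). When amino acids run short, the transcription factor ATF4 raises a number of these genes through C/EBP-ATF response elements. Arginine and leucine are sensed by a network that controls the kinase mTORC1, with Slc38a9 as an arginine-sensing member at the lysosome.

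Each array carried 59305 non-control spots, of which 50.7 to 55.9% were well above background and 0 were saturated, and the number of arrays limits the precision. Replicates are biological per the labels, but whether a preparation of supernatant was shared between them is not stated, and the p-values therefore cover no more than the spread between these 8 samples. All arrays lay on 1 slide, with KD and control arrays in different columns and 6 h and 3 h arrays in different rows, so supernatant and slide column, and time and slide row, cannot be told apart. Of 19 adipocyte markers, all 8 arrays showed 10 well above background, among them Pparg, Fabp4 and Lpl, and 7 on none, among them Adipoq, Lep and Slc2a4. All 13 preadipocyte and fibroblast markers were above it on all 8 arrays. Of 11 macrophage and leukocyte markers, 6 were above it on all 8 arrays (Csf1r, Itgam, Lyz2, Cd14, Cd3e and Elane). Another 3 were above it on none, among them Ptprc, the pan-leukocyte marker. Of 6 endothelial markers, 3 were above it on all 8 arrays and 2 on none, and of 6 muscle markers 2 and 4. The 2 control 6 h arrays had small bright patches over 2.08% and 3.29% of their spots, against 1.30% and 0.226% on the KD 6 h arrays and at most 0.132% on any 3 h array.

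The promoters of 4 members that changed with time are shown, because they hold a spelled-out element for ATF4 or for AP-1, a factor induced by phorbol esters and cytokines. They run from 250 bases before to 50 bases after a RefSeq start site (GRCm38.p6), and capitals mark TGATGNAA, the C/EBP-ATF response element, or TGANTCA, the AP-1 element, each searched on both strands. A gene can have several start sites, and 20 of the 29 tested members matched 35 such promoters.
Slc7a1, chr5:148399855-148400154, minus strand, AP-1 element starting 123 bases before the start site: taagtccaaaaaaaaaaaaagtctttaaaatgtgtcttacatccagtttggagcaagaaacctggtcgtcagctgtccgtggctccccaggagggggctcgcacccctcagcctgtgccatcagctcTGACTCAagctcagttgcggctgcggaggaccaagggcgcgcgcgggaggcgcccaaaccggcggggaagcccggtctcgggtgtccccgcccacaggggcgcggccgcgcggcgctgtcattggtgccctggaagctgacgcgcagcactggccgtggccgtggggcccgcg
Slc3a1, chr17:85028097-85028396, plus strand, AP-1 element starting 140 bases before the start site: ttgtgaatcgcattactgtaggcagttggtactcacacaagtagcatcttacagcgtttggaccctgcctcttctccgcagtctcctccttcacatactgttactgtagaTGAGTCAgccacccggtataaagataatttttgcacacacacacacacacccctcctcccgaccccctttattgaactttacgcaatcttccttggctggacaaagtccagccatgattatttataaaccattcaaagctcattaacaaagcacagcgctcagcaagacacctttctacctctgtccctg
Slc38a7, chr8:95853442-95853741, minus strand, AP-1 element starting 45 bases before the start site: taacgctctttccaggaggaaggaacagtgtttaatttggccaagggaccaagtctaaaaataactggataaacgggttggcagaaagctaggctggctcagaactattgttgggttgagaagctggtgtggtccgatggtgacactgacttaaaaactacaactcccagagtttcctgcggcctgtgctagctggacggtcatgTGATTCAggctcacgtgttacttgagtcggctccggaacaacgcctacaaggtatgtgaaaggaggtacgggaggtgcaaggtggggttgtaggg
Slc7a7, chr14:54417895-54418194, minus strand, C/EBP-ATF elements starting 141 bases and 1 base before the start site: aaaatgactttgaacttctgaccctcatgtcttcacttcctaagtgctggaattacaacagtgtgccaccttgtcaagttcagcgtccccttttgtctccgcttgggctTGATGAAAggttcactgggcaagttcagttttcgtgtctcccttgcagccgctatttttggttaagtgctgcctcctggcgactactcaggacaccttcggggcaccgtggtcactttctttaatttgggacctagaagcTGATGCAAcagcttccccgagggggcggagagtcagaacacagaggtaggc
Slc7a1 and Slc3a1 were lower at 6 h than at 3 h in both supernatants, while Slc38a7 and Slc7a7 were higher, as given below with their values. The AP-1 letters were found in 5 of the 35 promoters of tested members (14.3%), against 7.81% of all 32851 promoters in the table. Beside Slc7a1, Slc3a1 and Slc38a7, these belong to Slc38a10 and Slc6a12, which passed with time in neither supernatant. The C/EBP-ATF letters were found in 3 of the 35 (8.57%), against 3.97% of all, and 2 of these 3 are overlapping start sites of Slc7a7. A further match stands in the promoter of Slc1a4, whose signal passed in no comparison. A match of letters is a description of the sequence and not a binding site.

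On both arrays of a group, 26 members were well above background with KD supernatant at 6 h, 26 with control supernatant at 6 h, 29 with KD supernatant at 3 h and 27 with control supernatant at 3 h. The 26 of the 6 h groups were above background on all 8 arrays, and 3 further members were tested, among them Slc3a1 and Slc38a11. Slc3a1 was above background on all 4 arrays of 3 h and on 0 of 4 at 6 h. Slc38a11 was above it on both KD arrays and 1 control array of 3 h and on 0 of 4 arrays at 6 h. These members entered the test through the 3 h groups in which they were bright, so a fall with time was built into their choice, and counts over the 29 are read with that in mind.

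**Figure D1:**
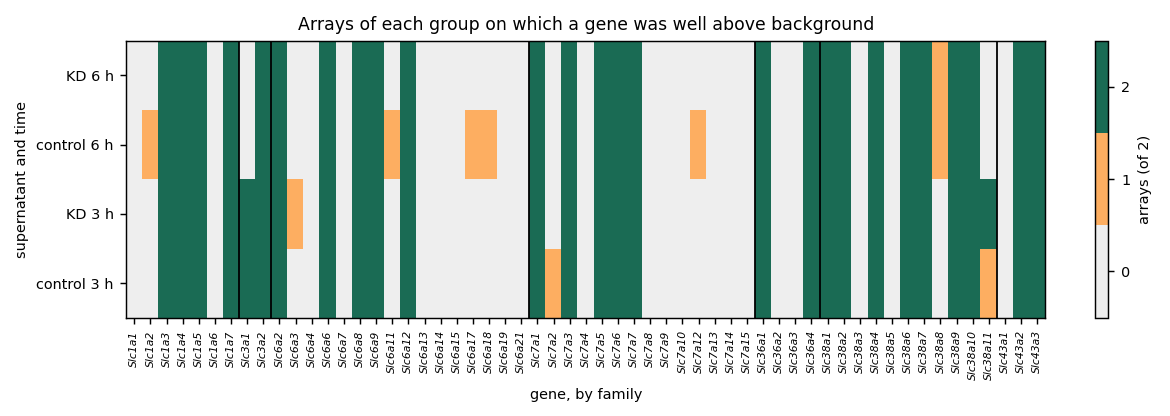
Number of arrays (0, 1 or 2) on which each of the genes with a probe, apart from 1 that is not drawn, was well above background, in KD 6 h, control 6 h, KD 3 h and control 3 h, with genes ordered by family along the x axis. A block of 26 genes is above background on both arrays of every group, and 21 genes are above it on none.

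By family, 4 of 7 Slc1a, 2 of 2 Slc3a, 6 of 19 Slc6a, 5 of 14 Slc7a, 2 of 4 Slc36a, 8 of 11 Slc38a and 2 of 3 Slc43a genes were tested. Of the 29 members with a probe that were not tested, 21 were well above background on no array. They include Slc1a1, the widespread glutamate carrier EAAC1, the light chains Slc7a8, Slc7a9 and Slc7a10, the serotonin transporter Slc6a4, the proton-coupled Slc36a2 and the leucine-preferring Slc43a1. Another 7 were above it on exactly 1 array and Slc38a8 on 1 KD 6 h and 1 control 6 h array. The control 6 h arrays hold 6 of these 9 detections, the KD 6 h arrays 1, the KD 3 h arrays 1 (the dopamine transporter Slc6a3) and the control 3 h arrays 1 (the cationic transporter Slc7a2).

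Most tested members passed with time in the supernatant. Between supernatants few members passed, as did few of all features. With KD supernatant, 18 of 29 members changed between 6 h and 3 h, 8 higher and 10 lower at 6 h. These are 62.1% of the members, against 47.5% of named genes and 39.9% of all features tested (17.7% higher and 22.2% lower). With control supernatant, 17 changed, 6 higher and 11 lower. These are 58.6% of the members, against 47.9% of named genes and 39.9% of all features (16.3% higher and 23.6% lower). In bulk RNA, fewer cells of a type and less RNA per cell cannot be told apart. In either supernatant 20 members passed and in both 15. Passing in either or in both was not counted over all features, of which 39.9% passed in each supernatant. Of the 15 members, 6 were higher at 6 h (Slc1a7, Slc6a2, Slc7a7, Slc38a6, Slc38a7 and Slc38a9). The other 9 were lower (Slc1a5, Slc3a1, Slc6a8, Slc7a1, Slc7a3, Slc7a5, Slc36a4, Slc38a2 and Slc43a3).

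The median change with time was -0.35 with KD supernatant and -0.13 with control supernatant on the log2 scale, against -0.06 and -0.07 over named genes and -0.11 and -0.07 over all features. The median size of the change was 0.44 and 0.47, against 0.32 and 0.32 over named genes and 0.31 and 0.30 over all features. The groups did not overlap for 26 of 29 members with KD supernatant (89.7%, against 77.5% of all features) and for 21 with control supernatant (72.4%, against 67.2%). On 8 members (27.6%, against 19.5% of all features) all 4 arrays of 6 h lay above all 4 of 3 h, and on 11 (37.9%, against 28.2%) below. The direction was the same in both supernatants for 25 members and differed for 4, among them Slc6a9, Slc38a1 and Slc38a10. Agreement in direction was not counted over all features.

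The split of directions depended on the scaling. With arrays centred on their medians, 4 members were higher and 10 lower with KD supernatant and 3 higher and 13 lower with control supernatant, while all features' median moved to -0.20 and -0.27. These are 48.3% and 55.2% of the members, against 40.7% and 48% of all features. With no scaling, 4 were higher and 3 lower with KD supernatant and 3 higher and 5 lower with control supernatant. The members' shares of 24.1% and 27.6% then lay near those of all features, 21.3% and 22.2%, and with quantile normalization 41.4% of the members passed with control supernatant, against 41.8% of all features. Leaving out KD 3 h replicate 1 or KD 3 h replicate 2 left 11 calls with KD supernatant (37.9%, against 26% and 26.7% of all features), and leaving out control 3 h replicate 1 left 11 with control supernatant (37.9%, against 27.9%).

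**Figure D2:**
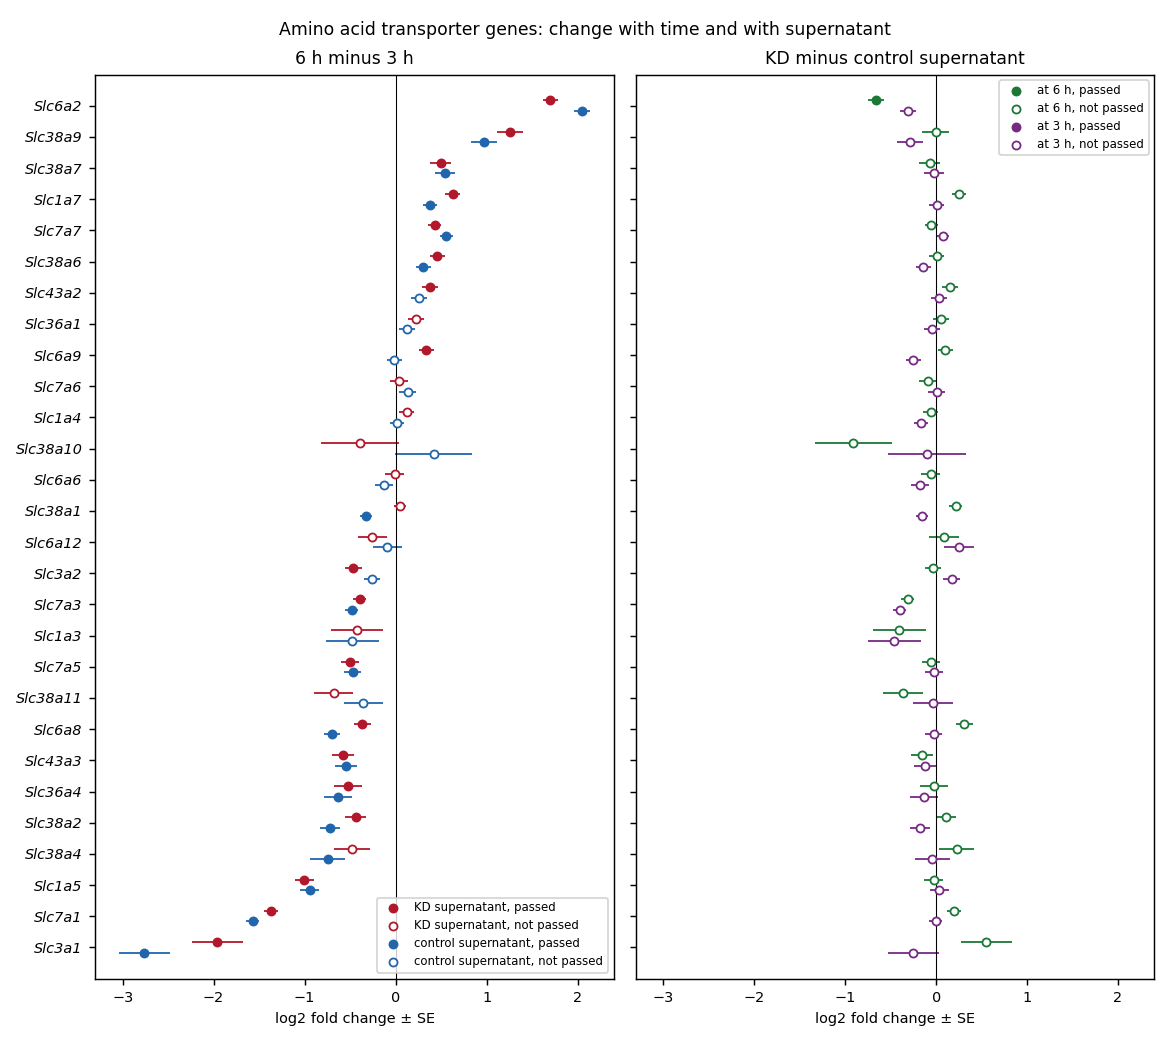
Log2 fold change with its standard error (x axis) for the tested members (y axis, ordered by their mean change with time; 1 is not drawn), at 6 h against 3 h on the left and with KD against control supernatant on the right. Filled points passed at an adjusted p under 0.05. Changes with time run from -2.76 (Slc3a1, like Slc38a11 a fitted value with no 6 h array well above background) to 2.05 (Slc6a2), and on the right only Slc6a2 at 6 h is filled.

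Among the heavy chains and their partners, Slc3a1 and Slc7a5 were lower at 6 h in both supernatants and Slc7a7 was higher. Slc3a2 (chr19:8706882-8723369), the heavy chain of CD98, had log2 signals relative to the 75th percentile of its array of 5.53 and 5.76 on KD 6 h, 5.67 and 5.69 on control 6 h, 6.15 and 6.07 on KD 3 h and 5.93 and 5.95 on control 3 h arrays. All 4 arrays of 6 h lay below all of 3 h. The change was -0.46 ± 0.09 (SE) with KD supernatant (limma adjusted p = 0.0096) and -0.26 ± 0.09 with control supernatant, which missed the threshold (limma adjusted p = 0.0664). Its KD call was lost without KD 3 h replicate 1 and with no scaling, and 1 of its KD 6 h spots lay in a small bright patch.

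Slc3a1 (chr17:85028347-85064241), the heavy chain of the cystine and dibasic amino acid carrier of kidney and gut, had log2 signals of -5.70 and -5.40 on KD 6 h, -6.52 and -5.68 on control 6 h, -3.67 and -3.51 on KD 3 h and -3.21 and -3.47 on control 3 h arrays. The groups of 6 h and 3 h lay apart in both supernatants, with no 6 h array well above background. In processed signals it was at least 2.80-fold lower at 6 h than at 3 h with KD supernatant and at least 2.23-fold lower with control supernatant. The fitted log2 changes were -1.96 and -2.76 (limma adjusted p = 0.00327 and 0.000922). Because the gene entered through its 3 h groups, a fall was built into its choice, and these p-values are no independent test of it. With normexp background correction the fitted log2 changes were -0.42 and -0.48, smaller than the bounds given.

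The light chain Slc7a5 (LAT1, chr8:121881146-121907686), which exchanges large neutral amino acids, had log2 signals of 2.07 and 2.16 on KD 6 h, 2.06 and 2.28 on control 6 h, 2.56 and 2.67 on KD 3 h and 2.61 and 2.67 on control 3 h arrays. All 6 h arrays lay below all 3 h arrays. It fell by 0.50 ± 0.10 with KD supernatant (limma adjusted p = 0.00973) and by 0.47 ± 0.10 with control supernatant (limma adjusted p = 0.0116), calls lost under 3 and 4 alternatives. A second, dimmer probe of Slc7a5 gave -0.15 and 0.07, so the probes disagree.

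Slc7a7 (y+LAT1, chr14:54369442-54420068), a light chain that exports cationic for neutral amino acids, had log2 signals of -1.12 and -1.10 on KD 6 h, -1.005 and -1.11 on control 6 h, -1.58 and -1.49 on KD 3 h and -1.57 and -1.65 on control 3 h arrays. It was higher at 6 h on every array. The change was 0.43 ± 0.07 with KD supernatant (limma adjusted p = 0.00555) and 0.56 ± 0.07 with control supernatant (limma adjusted p = 0.00205). Slc7a6, the related y+LAT2, lay between 0.42 and 0.72 on all 8 arrays, with changes of 0.04 ± 0.10 and 0.13 ± 0.10 that missed the threshold.

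Of the cationic amino acid transporters, which carry arginine, lysine and ornithine without a heavy chain, Slc7a1 and Slc7a3 were tested and both were lower at 6 h, while Slc7a2 was too dim to be tested. Slc7a1 (CAT1, chr5:148327410-148399904) had log2 signals of 3.66 and 3.65 on KD 6 h, 3.54 and 3.37 on control 6 h, 4.99 and 5.05 on KD 3 h and 5.04 and 5.01 on control 3 h arrays. The 6 h and 3 h arrays lay far apart relative to the spread within each group. Its level at 6 h was 38.8% of that at 3 h with KD supernatant (log2 change -1.37 ± 0.08, limma adjusted p = 0.000184) and 33.6% with control supernatant (-1.57 ± 0.08, limma adjusted p = 0.000129).

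Slc7a3 (CAT3, chrX:101079146-101090452) had log2 signals of -1.41 and -1.40 on KD 6 h, -1.07 and -1.11 on control 6 h, -1.09 and -0.93 on KD 3 h and -0.59 and -0.62 on control 3 h arrays. KD arrays lay below control arrays of the same time, and 6 h arrays below 3 h arrays of the same supernatant. With time it fell by 0.39 ± 0.07 with KD supernatant (limma adjusted p = 0.00818) and by 0.48 ± 0.07 with control supernatant (limma adjusted p = 0.0037).

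**Figure D3:**
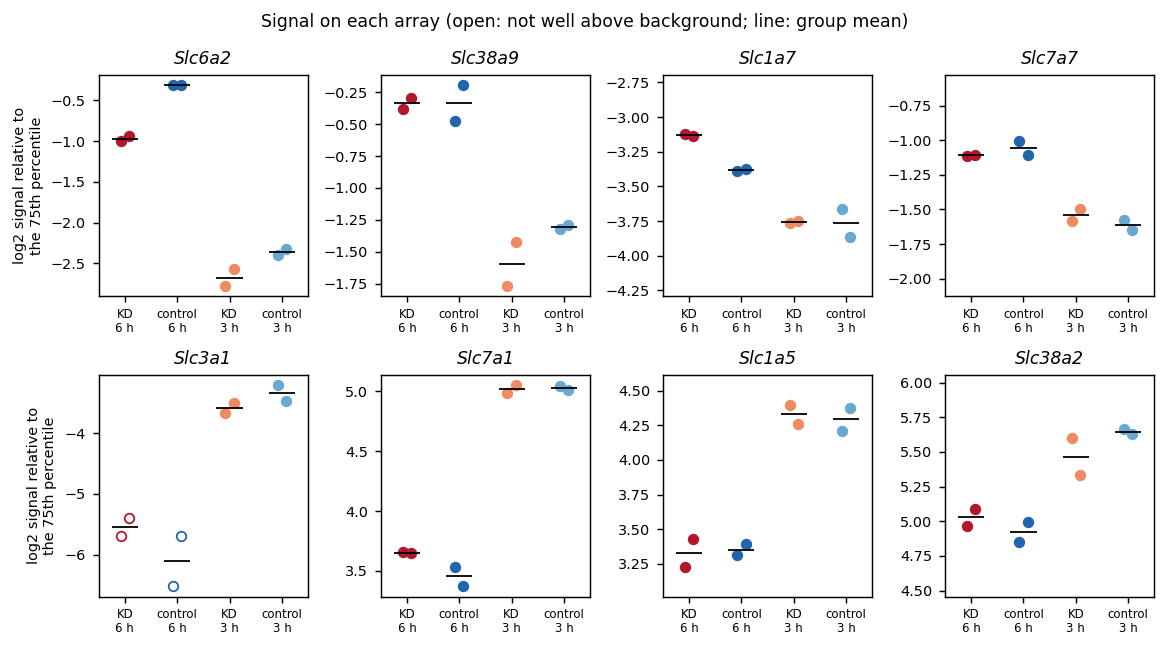
Log2 signal relative to the array's 75th percentile (y axis, a separate range in each panel) on each array of KD 6 h, control 6 h, KD 3 h and control 3 h for 8 members, with lines at the group means and open points where the probe was not well above background. Slc6a2, Slc38a9, Slc1a7 and Slc7a7 are higher at 6 h and Slc3a1, Slc7a1, Slc1a5 and Slc38a2 lower, and the KD 6 h and control 6 h points of Slc6a2 lie apart at -1.003 and -0.94 against -0.31 and -0.31.

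Among the Slc1a genes, the neutral exchanger Slc1a5 fell and the glutamate transporter Slc1a7 rose, while Slc1a4 and Slc1a3 did not pass with time. Slc1a5 (ASCT2, chr7:16781334-16798274), which takes up glutamine in exchange for other neutral amino acids, had log2 signals of 3.23 and 3.43 on KD 6 h, 3.31 and 3.39 on control 6 h, 4.40 and 4.26 on KD 3 h and 4.21 and 4.38 on control 3 h arrays. Its level at 6 h was 49.9% of that at 3 h with KD supernatant (log2 change -1.003 ± 0.10, limma adjusted p = 0.00103) and 52.0% with control supernatant (-0.94 ± 0.10, limma adjusted p = 0.00121). A second probe gave -0.996 and -1.02.

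Slc1a7 (EAAT5, chr4:107968406-108013529), a glutamate transporter known from the retina, had log2 signals of -3.12 and -3.14 on KD 6 h, -3.39 and -3.37 on control 6 h, -3.77 and -3.75 on KD 3 h and -3.66 and -3.86 on control 3 h arrays. It rose by 0.63 ± 0.08 with KD supernatant (limma adjusted p = 0.00211) and by 0.38 ± 0.08 with control supernatant (limma adjusted p = 0.0131), and the second of these calls was lost under 6 alternatives. Slc1a4 (ASCT1), a carrier of alanine, serine and cysteine, lay between 1.49 and 1.80 on all 8 arrays. The astrocyte glutamate transporter Slc1a3 (GLAST) lay between -2.51 and -1.97 on 7 arrays and at -1.09 on control 3 h replicate 1. Neither of these passed in any comparison.

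The 8 tested Slc38a genes moved in both directions. Slc38a2 (SNAT2, chr15:96687392-96699728), the system A transporter that amino acid shortage induces, had log2 signals of 4.97 and 5.09 on KD 6 h, 4.85 and 4.99 on control 6 h, 5.60 and 5.33 on KD 3 h and 5.66 and 5.63 on control 3 h arrays. It fell by 0.44 ± 0.11 with KD supernatant (limma adjusted p = 0.0259) and by 0.72 ± 0.11 with control supernatant (limma adjusted p = 0.00413), and the first of these calls was lost under 8 alternatives. Its sister gene Slc38a4 (SNAT4) had 0.70 and 0.66 on KD 6 h, 0.14 and 0.77 on control 6 h, 1.22 and 1.11 on KD 3 h and 1.22 and 1.18 on control 3 h arrays. It fell by 0.75 ± 0.20 with control supernatant (limma adjusted p = 0.0282), a call lost under 8 of 21 alternatives, and with KD supernatant its change of -0.48 ± 0.20 missed the threshold (limma adjusted p = 0.103).

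Slc38a1 (SNAT1, chr15:96571418-96643438), the third system A gene, had log2 signals of 1.73 and 1.72 on KD 6 h, 1.47 and 1.55 on control 6 h, 1.74 and 1.62 on KD 3 h and 1.85 and 1.82 on control 3 h arrays. It fell by 0.33 ± 0.07 with control supernatant (limma adjusted p = 0.0131), a call lost under 6 alternatives, and had a change of 0.05 ± 0.07 with KD supernatant (limma adjusted p = 0.622). The difference between these changes, 0.37 ± 0.10, missed the threshold (limma adjusted p = 0.435). The 2 dimmer probes of Slc38a1 gave -0.09 and 0.29 with control supernatant and 0.43 and 0.61 with KD supernatant. The probes thus disagree on both changes, while the dimmer probes' differences were 0.53 and 0.32.

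Slc38a9 (chr13:112656189-112738752), the lysosomal arginine transporter of the mTORC1 network, had log2 signals of -0.38 and -0.30 on KD 6 h, -0.47 and -0.19 on control 6 h, -1.77 and -1.42 on KD 3 h and -1.32 and -1.29 on control 3 h arrays. Every 6 h array lay above every 3 h array. Its level was 2.39-fold higher at 6 h with KD supernatant (log2 change 1.26 ± 0.15, limma adjusted p = 0.00146) and 1.96-fold higher with control supernatant (0.97 ± 0.15, limma adjusted p = 0.0036). Its other 2 probes also went up, by 1.22 and 1.63 with KD supernatant and by 0.70 and 1.20 with control supernatant.

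Slc38a7 (SNAT7, chr8:95835920-95853577), a lysosomal exporter of glutamine and asparagine, had log2 signals of 0.73 and 0.97 on KD 6 h, 0.83 and 1.02 on control 6 h, 0.34 and 0.38 on KD 3 h and 0.32 and 0.44 on control 3 h arrays. It rose by 0.49 ± 0.11 with KD supernatant (limma adjusted p = 0.0165) and by 0.55 ± 0.11 with control supernatant (limma adjusted p = 0.0112), calls lost under 6 and 3 alternatives. Slc38a6 had -1.55 and -1.36 on KD 6 h, -1.49 and -1.43 on control 6 h, -1.91 and -1.92 on KD 3 h and -1.80 and -1.73 on control 3 h arrays, and rose by 0.46 ± 0.08 (limma adjusted p = 0.00789) and 0.31 ± 0.08 (limma adjusted p = 0.0319). The second of these, with control supernatant, was lost under 12 of 21 alternatives.

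The remaining Slc38a genes did not pass. Slc38a10 had log2 signals of -1.32 and -1.35 on KD 6 h, 0.29 and -1.14 on control 6 h, -0.99 and -0.90 on KD 3 h and -0.80 and -0.89 on control 3 h arrays. Control 6 h replicate 1 stood 1.23 above the gene's median over the arrays, and its spot lay in a small bright patch in which 4 of 8 neighbouring spots were raised by over 1. Without control 6 h replicate 2, which leaves that array as the only one of its group, Slc38a10 passed at 6 h, in the average and in the difference. The dim Slc38a11 lay between -6.07 and -5.32 on the arrays of 6 h and between -5.14 and -4.90 on those of 3 h, and its probe was well above background on no 6 h array. With KD supernatant Slc38a11 was at least 1.01-fold lower at 6 h than at 3 h. Its fitted log2 change of -0.68 missed the threshold (limma adjusted p = 0.0535).

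The Slc6a family held the tested member with the largest rise with time. Slc6a2 (chr8:92960470-93001667), the noradrenaline transporter of sympathetic neurons, had log2 signals of -1.003 and -0.94 on KD 6 h, -0.31 and -0.31 on control 6 h, -2.78 and -2.57 on KD 3 h and -2.40 and -2.33 on control 3 h arrays. No 2 of the 4 groups overlapped. It was 3.25-fold higher at 6 h than at 3 h with KD supernatant (log2 change 1.70 ± 0.09, limma adjusted p = 0.000159) and 4.15-fold higher with control supernatant (2.05 ± 0.09, limma adjusted p = 0.000111). Of 6 neuron and astrocyte markers, Syp, Snap25, Aqp4 and Aldh1l1 were above background on all 8 arrays and Rbfox3 on none, and their part in this result was not tested.

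Slc6a8 (chrX:73673133-73682502), the creatine transporter, had log2 signals of 4.07 and 4.13 on KD 6 h, 3.68 and 3.91 on control 6 h, 4.46 and 4.48 on KD 3 h and 4.53 and 4.46 on control 3 h arrays. It fell by 0.37 ± 0.09 with KD supernatant (limma adjusted p = 0.025) and by 0.70 ± 0.09 with control supernatant (limma adjusted p = 0.00231), and the first of these calls was lost under 8 alternatives. The difference, 0.33 ± 0.13, missed the threshold (limma adjusted p = 0.557).

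Slc6a9 (chr4:117835258-117869305), the glycine transporter GlyT1, had log2 signals of 4.23 and 4.33 on KD 6 h, 4.24 and 4.12 on control 6 h, 4.01 and 3.88 on KD 3 h and 4.20 and 4.19 on control 3 h arrays. The KD 3 h arrays were the lowest. It rose by 0.34 ± 0.08 with KD supernatant (limma adjusted p = 0.0215), a call lost under 6 alternatives, and with control supernatant its change was -0.01 ± 0.08 (limma adjusted p = 0.908), but the difference of 0.35 ± 0.11 missed the threshold (limma adjusted p = 0.512). The taurine transporter Slc6a6 lay between 2.74 and 3.07 and the betaine transporter Slc6a12 between -3.43 and -2.88 over the 8 arrays. Neither passed in any comparison.

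In the Slc36a family, Slc36a4 (chr9:15709738-15742388) had log2 signals of -0.55 and -0.41 on KD 6 h, -0.27 and -0.64 on control 6 h, -0.05 and 0.13 on KD 3 h and 0.29 and 0.07 on control 3 h arrays. It fell by 0.52 ± 0.15 with KD supernatant (limma adjusted p = 0.0426) and by 0.63 ± 0.15 with control supernatant (limma adjusted p = 0.0221). The first of these calls was lost under 9 of 21 alternatives, with adjusted p up to 0.184, among them the replicate block, no scaling, no filter and each fit that left out a 3 h or a KD 6 h array, and the second under 3. The lysosomal Slc36a1 (PAT1) lay between -0.38 and -0.17 at 6 h and between -0.52 and -0.39 at 3 h, and its changes of 0.22 ± 0.09 and 0.12 ± 0.09 missed the threshold. A second, dimmer probe of Slc36a1 gave 0.41 and 1.11 with time and -0.71 between supernatants at 6 h, so the probes disagree. The dimmer probe stood 1.32 above its median over the 8 arrays on control 6 h replicate 1.

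Of the Slc43a genes, Slc43a2 (LAT4, chr11:75529915-75577575), a uniporter of large neutral amino acids, had log2 signals of -1.10 and -0.93 on KD 6 h, -1.13 and -1.21 on control 6 h, -1.44 and -1.35 on KD 3 h and -1.47 and -1.38 on control 3 h arrays. It rose by 0.38 ± 0.09 with KD supernatant (limma adjusted p = 0.0176), a call lost under 6 alternatives, and its change of 0.26 ± 0.09 with control supernatant missed the threshold (limma adjusted p = 0.0627). The nucleobase carrier Slc43a3 had 2.78 and 2.58 on KD 6 h, 2.99 and 2.69 on control 6 h, 3.22 and 3.30 on KD 3 h and 3.36 and 3.41 on control 3 h arrays. It fell by 0.58 ± 0.12 (limma adjusted p = 0.0134) and 0.54 ± 0.12 (limma adjusted p = 0.0164), calls lost under 5 and 4 alternatives.

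The study asked what the supernatant of USP2 knockdown cells did to the 3T3-L1 cells. Few of these genes passed between supernatants, and few of all features did. At 6 h, 1 of 29 members passed (3.45%), against 2.91% of named genes and 2.3% of all features, 1.6% higher and 0.698% lower. This member was Slc6a2, which was lower with KD supernatant. At 3 h, 0 passed in limma, against 0.37% of named genes and 0.244% of all features (0.225% higher and 0.0194% lower). The smallest limma adjusted p of a member there was 0.133 (Slc7a3). An unadjusted limma p under 0.05 was found at 3 h for 3 of 29 members, against 2725 of 25799 features. Averaged over both times, 2 passed (6.9%), Slc6a2 and Slc7a3, both lower, against 4.03% of named genes and 3.13% of all features, 2.16% higher and 0.965% lower. The difference between the effects at 6 h and at 3 h passed in limma for 0 members and 0 of all features (0%). For this difference, 4 of 29 members had an unadjusted limma p under 0.05, against 2272 of 25799 features.

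The level of Slc6a2 with KD supernatant was 63.1% of that with control supernatant at 6 h (log2 change -0.66 ± 0.09, limma adjusted p = 0.0262) and 80.5% at 3 h (-0.31 ± 0.09, limma adjusted p = 0.292). Its average change was -0.49 ± 0.06 (limma adjusted p = 0.0186). For Slc7a3 the KD level was 80.6% of the control level at 6 h (-0.31 ± 0.07, limma adjusted p = 0.106) and 75.8% at 3 h (-0.40 ± 0.07, limma adjusted p = 0.133), and the average change was -0.36 ± 0.05 (limma adjusted p = 0.0279). Both genes were lower on every KD array than on every control array of the same time.

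These calls depended on the settings. Slc6a2 at 6 h was lost with arrays centred on their medians, with no scaling, with no filter, with array weights and with the 4 arrays of 6 h alone, and its adjusted p over all alternatives ranged up to 0.295. The 6 h call of Slc6a2 was also lost without control 3 h replicate 1 or 2, control 6 h replicate 1, or KD 6 h replicate 1 or 2. Without control 6 h replicate 2 more members passed at 6 h, and so did more of all features. The added members include Slc3a1, which was well above background on no 6 h array. For the average, 0 members passed without control 3 h replicate 1, KD 3 h replicate 1, KD 6 h replicate 1 or KD 6 h replicate 2, and 1 passed without control 3 h replicate 2 (Slc1a3) or KD 3 h replicate 2 (Slc6a2).

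The median change with KD against control supernatant was -0.03 at 6 h and -0.05 at 3 h over the tested members, against 0.00 and -0.02 over all features. The median size was 0.11 at 6 h and 0.12 at 3 h, against 0.15 and 0.10 over all features. The groups did not overlap for 9 members at 6 h (31%, against 47.6% of all features) and 14 at 3 h (48.3%, against 47.3%). The largest changes that missed the threshold at 6 h among members above background at 6 h were -0.91 ± 0.42 for Slc38a10 and -0.41 ± 0.29 for Slc1a3. At 3 h, beside Slc6a2 and Slc7a3, they were -0.46 ± 0.29 for Slc1a3, -0.29 ± 0.15 for Slc38a9 and -0.25 ± 0.08 for Slc6a9.

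At a single time, the 95% confidence interval of a member's change reached a median of 0.24 to either side, from 0.17 for Slc38a1 to 1.05 for Slc38a10. For Slc7a1, with the large change in time, the interval for KD against control supernatant was 0.01 to 0.39 at 6 h (limma adjusted p = 0.239) and -0.20 to 0.18 at 3 h. For Slc1a5 it was -0.28 to 0.23 at 6 h and -0.22 to 0.29 at 3 h. For Slc7a5 it was -0.29 to 0.19 at 6 h and -0.26 to 0.21 at 3 h. The sizes of both time changes exceeded those of both supernatant changes, which share arrays with them, for 18 of the 29 members, among them Slc3a1. This count was not made over all features. Of these, 39.9% passed with time in each supernatant, and 2.3% at 6 h and 0.244% at 3 h between supernatants.

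Companion genes were counted in the same way, and no list was tested as a set. The counts with time of each list stand against 47.5% of named genes and 39.9% of all features with KD supernatant. With control supernatant these shares were 47.9% and 39.9%. Between supernatants, 0.244% of all features passed at 3 h, 2.3% at 6 h and 3.13% in the average. Of 19 tested transporters of other families, 5 were higher and 5 lower at 6 h than at 3 h with KD supernatant, and 3 higher and 5 lower with control supernatant, with medians of -0.14 and -0.24. Ctns, the lysosomal cystine exporter, rose by 0.76 ± 0.09 and 0.84 ± 0.09 (limma adjusted p = 0.00178 and 0.00126). Slc25a29, a mitochondrial carrier of basic amino acids, was the only gene of this list to pass between supernatants, with -0.47 ± 0.07 at 6 h (limma adjusted p = 0.039), -0.65 ± 0.07 at 3 h (limma adjusted p = 0.0518) and -0.56 ± 0.05 averaged (limma adjusted p = 0.00813).

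Of 38 tested genes that carry amino acid signals to mTORC1, 11 were higher and 13 lower at 6 h with KD supernatant and 10 higher and 12 lower with control supernatant, with medians of 0.05 and 0.00. The GATOR1 subunits Nprl3 and Depdc5, parts of the complex that holds the Rag GTPases off, rose by 1.497 ± 0.06 and 1.38 ± 0.10 with KD supernatant and by 1.38 ± 0.06 and 1.30 ± 0.10 with control supernatant. Fnip2, a partner of folliculin, fell by 0.996 ± 0.07 and 1.05 ± 0.07. Between supernatants, Sesn1, a sestrin that inhibits mTORC1, was lower with KD supernatant in the average (-0.44 ± 0.06, limma adjusted p = 0.0225) and no other gene of the list passed.

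Of 24 tested genes of the ATF4 and integrated stress response, 3 were higher and 9 lower at 6 h with KD supernatant, and 3 higher and 11 lower with control supernatant, with medians of -0.10 and -0.15. The 3 that rose were Chac1, which degrades glutathione, Trib3 and Ddit3 (CHOP), all targets of this response. Chac1 rose by 2.49 ± 0.07 and 2.67 ± 0.07, Trib3 by 1.07 ± 0.09 and 1.10 ± 0.09, and Ddit3 by 0.98 ± 0.07 and 0.99 ± 0.07. Of the 9 and 11 that were lower, only the kinase Eif2ak3 (PERK) is named, which fell by 1.27 ± 0.07 and 1.39 ± 0.07. The named genes therefore do not stand for the list, most of whose calls were lower. Atf4 had log2 signals of 7.95 and 7.86 on KD 6 h, 7.93 and 7.82 on control 6 h, 7.81 and 7.70 on KD 3 h and 7.65 and 7.72 on control 3 h arrays. Ddit3 was also lower with KD supernatant in the average (-0.38 ± 0.05, limma adjusted p = 0.0223).

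Of 34 tested enzymes of amino acid metabolism, 3 were higher and 11 lower at 6 h with KD supernatant and 3 higher and 14 lower with control supernatant, and 0 passed between supernatants in limma, where the smallest p at 6 h was that of Odc1 (unadjusted p = 0.00257, adjusted p = 0.074). Gpt, an alanine transaminase, fell by 0.94 ± 0.07 and 1.11 ± 0.07, and Bckdk, which switches off branched-chain amino acid breakdown, rose by 0.74 ± 0.06 and 0.77 ± 0.06. Of 9 tested genes that traffic or regulate transporters, 0 were higher and 2 lower at 6 h with KD supernatant, and 0 higher and 3 lower with control supernatant. In this list Cd44, a surface protein that partners CD98, was higher with KD supernatant at 6 h (0.53 ± 0.07, limma adjusted p = 0.0254), and Cd44 and the kinase Sgk1 were higher in the average (0.31 ± 0.05 and 0.40 ± 0.05, limma adjusted p = 0.0354 and 0.0205).

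**Figure D4:**
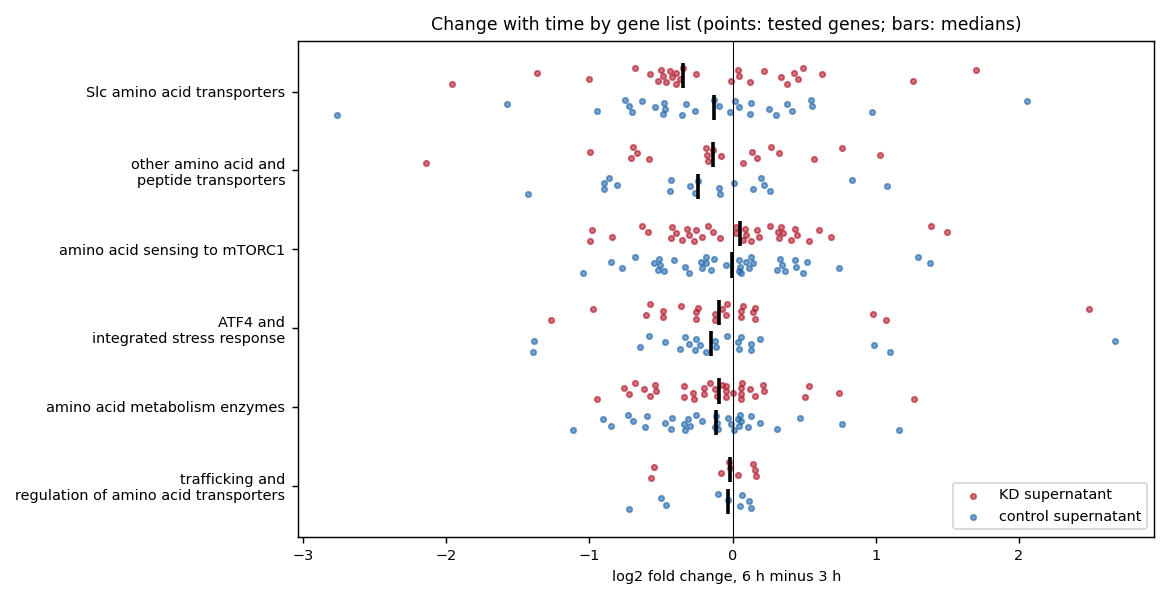
Log2 fold change at 6 h against 3 h (x axis) of each tested gene of the transporter families and of the 5 companion lists (y axis), for KD supernatant above and control supernatant below in each row, with bars at the medians. Every list spreads to both sides of 0, and the transporters' medians are -0.35 with KD supernatant and -0.13 with control supernatant.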

How the data were processed

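Total RNA of mouse 3T3-L1 cells (0.1 ug per sample) was measured on 8 one-colour arrays. The authors' deposited scanner output holds for each spot a processed signal, a background-subtracted intensity on a linear scale, per the file headers, with median spot and background intensities beside it. The submitters' processing notes name Agilent Feature Extraction 10.7.3.1. A deposited table of log2 values matched the log2 processed signal up to 1 constant per array (r = 1.00). Its medians were -4.11 and -4.22 (KD 6 h), -3.95 and -4.05 (control 6 h), -4.22 and -4.23 (KD 3 h) and -4.14 and -4.17 (control 3 h), it was not centred per gene, and it served as an alternative.

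From the scanner intensities, log2 processed signals were taken relative to each array's 75th percentile, spots marked as outliers (163 to 319 per array) and control spots were left out, and repeated spots of a probe were averaged. Among 55681 probes, 27235 were named through a RefSeq transcript and 20 by symbol or synonym (GRCm38.p6), and 28426 were kept unnamed. A probe was tested where some group had it well above background on both its arrays. The probe with the highest mean stood for a gene, giving 25799 features. Means of the 4 groups were fitted with limma 3.58.1 (lmFit, eBayes; R 4.3.3; 4 residual and 1.74 prior degrees of freedom), with Benjamini-Hochberg adjustment across all features, and an adjusted p under 0.05 passed. The fit was tested on simulated data. Where a whole group was not well above background for a gene, the text gives a lower bound (at least N-fold). For the dim group each array's value is then its own signal or, if higher, the lowest signal counted as well above background on that array, and these are averaged and set against the mean of the brighter group. Groups and replicate numbers came from the labels. Same-numbered arrays did not deviate together (correlations -0.05 to 0.09), so the numbers were not taken as pairs.

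Named were members that passed, the 5 largest changes each way per comparison, Slc3a1, Slc3a2, each family's brightest member, and up to 3 genes per companion list by p. The members, the companion lists and the tests were chosen with earlier results of these data known, and one alternative (small bright patches, a window of 5 by 5 spots) after these values were seen. The normexp alternative used median spot intensities. Python 3.11.15 with pandas 2.3.3, numpy 2.4.6 and matplotlib 3.10.9 was used for tables and plots. Counts and medians cover all members and listed genes, but the values of 1 member and 1 listed enzyme are not reported here.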

Additional observations from a re-analysis of the deposited data

How the results depend on the processing

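Over 38 calls of a member in a comparison, 797 values were computed under the alternatives, of which 661 kept direction and call, 136 kept direction and missed the threshold, and 0 reversed. The calls that held under every alternative run were 13: the changes with time of Slc1a5, Slc3a1, Slc6a2, Slc7a1, Slc7a7 and Slc38a9 in both supernatants and of Slc1a7 with KD supernatant. Slc3a1 was absent from the fit of probes well above background on all arrays, and its fall was built into its choice. The cause of the lost calls was not tested. At 6 h, where 1 member passed, 0 did with arrays centred on their medians, no scaling, no filter, array weights, the 4 arrays of 6 h alone and a replicate block. For the average, where 2 passed, 1 did with normexp background correction, 1 with a replicate block, and 0 with median centring, no scaling and no filter. With time, 7 passed with no scaling and 11 with no filter against 18 with KD supernatant, and 8 and 11 against 17 with control supernatant. With no filter more features are tested and adjusted for. Under the replicate block, which the data gave no reason to use as a pairing, 18 and 17 passed with time and 0 at 3 h. Leaving out each array in turn, 0 to 0 passed at 3 h, 0 to 5 at 6 h, 0 to 3 in the average, 0 to 1 in the difference, 11 to 20 with time and KD supernatant and 11 to 17 with time and control supernatant. Median centring moved the median of all features to 0.19 at 6 h and 0.12 in the average between supernatants. A group left with 1 array is assumed to vary like the others, and the calls over all features also moved with the array left out. Signal over background limits Slc3a1 and Slc38a11.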

Other observations

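Several members that were not tested gave a bright spot on a single array. Slc6a18, known as a kidney carrier of neutral amino acids, was 5.91 above its median over the 8 arrays on control 6 h replicate 1 on the log2 scale, and Slc6a17, a vesicular carrier of neurons, was 3.62 above it there. On control 6 h replicate 2, Slc38a8 was 5.53, Slc7a12 4.53, Slc1a2 3.67 and Slc6a11 3.03 above their medians, and the spots next to Slc7a12 were raised by a median of 3.60. Slc38a8 was also 2.43 above its median on KD 6 h replicate 1, and Slc6a3 was 4.22 above it on KD 3 h replicate 1. Outlier spots, left out here, included those of Slc1a1 on control 6 h replicate 2 (5.57 above its median) and of Slc7a8 on the same array (4.06 above it).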
